A study of Mus musculus with 8 samples.

Results

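The genes described here are 10 enzymes of xenobiotic and electrophile metabolism, taken by name from the 51912 gene identifiers counted in mouse ear epidermis. They are the glutathione transferases Gstm1, Gstm2, Gstm5, Gsta4 and Gsto1, the cytochromes P450 Cyp1a1 and Cyp2g1, the quinone reductase Nqo1, the aldehyde dehydrogenase Aldh3a1 and the sulfotransferase Sult2a3. All 10 were among the 16512 genes with enough counts to be tested. The list was selected on earlier results of these same libraries, in which the differences in normalised counts between A20KIKO and A20WT mice were already known. Differences of the 10 genes between the groups are therefore given as a description, and no test of them is offered as support.

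RNA was sequenced from ear epidermal sheets of 8 mice aged 8 weeks, each library from a separate animal. The A20KIKO group held 4 mice with the genotype A20F/F Krt5-CreERT2+, and the A20WT group held 4 mice with the genotype A20F/F Krt5-CreERT2-. Both groups thus carried floxed alleles of A20 (Tnfaip3), a ubiquitin-modifying protein that dampens NF-kB signalling, and both received tamoxifen, 1 mg per injection in 2 injections on successive days. Mice were killed 7 days after the first injection. The Krt5 promoter drives the inducible Cre in basal keratinocytes, and no A20WT mouse carried it, so loss of A20 and presence of the Cre cannot be told apart. Summed counts per library ran from 40451075 in A20KIKO mouse 3 to 89624373 in A20WT mouse 1. Tnfaip3 had 74.0 ± 17.3 CPM, or counts scaled to library size by the TMM method, in libraries labelled A20KIKO, against 16.5 ± 2.65 CPM in libraries labelled A20WT (SD over 4 mice each), and was thus higher where the label names its loss (log2 change 2.16, edgeR adjusted p = 8.36e-05). That count covers the whole gene, including exons outside any deleted part, and so does not test the deletion. Keratinocyte markers were abundant in every library: the summed level of 12 differentiated keratinocyte genes was 45240 to 54070 CPM in A20KIKO and 38800 to 54770 CPM in A20WT mice.

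Detoxification proceeds in steps. Phase I enzymes such as cytochromes P450 oxidise a compound, phase II enzymes such as glutathione transferases and sulfotransferases attach a soluble group, and membrane pumps export the product. In skin this system handles environmental chemicals, quinones and the reactive aldehydes that arise from lipid peroxidation. The transcription factor NRF2, held in check by KEAP1, is known to induce many glutathione transferases and Nqo1 through the antioxidant response element, and the aryl hydrocarbon receptor (AhR) is known to induce Cyp1a1 through the xenobiotic response element.

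The upstream sequences of 4 of the genes are shown first. Gstm1, Gstm2 and Gstm5 are neighbours whose balance differed between the groups, and Cyp1a1 is the best-known AhR target. Each line holds the 250 bases before a RefSeq transcription start, 5′ to 3′ on the gene's strand in GRCm38.p6. Capitals mark the xenobiotic response element core GCGTG, read on either strand, and the antioxidant response element core TGACNNNGC.
Gstm1: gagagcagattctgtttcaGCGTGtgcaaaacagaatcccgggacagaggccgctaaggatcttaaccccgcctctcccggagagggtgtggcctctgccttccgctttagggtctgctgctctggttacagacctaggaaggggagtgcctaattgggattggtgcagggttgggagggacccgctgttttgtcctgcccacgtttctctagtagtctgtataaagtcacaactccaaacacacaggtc
Gstm2: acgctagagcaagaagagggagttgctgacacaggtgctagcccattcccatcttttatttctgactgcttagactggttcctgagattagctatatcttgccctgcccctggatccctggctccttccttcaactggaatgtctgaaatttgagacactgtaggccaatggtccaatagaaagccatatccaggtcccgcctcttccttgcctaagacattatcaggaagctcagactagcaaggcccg
Gstm5: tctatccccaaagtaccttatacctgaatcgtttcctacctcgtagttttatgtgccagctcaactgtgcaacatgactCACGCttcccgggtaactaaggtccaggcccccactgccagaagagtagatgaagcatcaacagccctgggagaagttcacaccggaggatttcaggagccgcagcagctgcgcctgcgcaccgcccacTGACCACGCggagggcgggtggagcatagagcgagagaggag
Cyp1a1: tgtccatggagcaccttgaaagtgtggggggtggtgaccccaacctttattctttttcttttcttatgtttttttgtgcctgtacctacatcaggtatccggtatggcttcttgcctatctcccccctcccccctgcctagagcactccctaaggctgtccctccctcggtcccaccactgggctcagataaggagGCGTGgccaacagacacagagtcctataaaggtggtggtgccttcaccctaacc

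Each line is the upstream part of a 300 base window that runs on for 50 bases past the start. The windows are chr3:108017769-108018068 on the minus strand for Gstm1, chr3:107986371-107986670 on the minus strand for Gstm2, chr3:107895604-107895903 on the plus strand for Gstm5 and chr9:57697363-57697662 on the plus strand for Cyp1a1. RefSeq had 8 windows for 7 of the 10 genes, and Gsta4, Cyp2g1 and Aldh3a1 had no entry. Among those 7 genes, TGACNNNGC on either strand was found in the Gstm5 window, as TGACCACGC whose first base lies 42 bases before the start. The last 5 bases of that match are also GCGTG read on the other strand, so the motifs overlap there. Of all 32851 mouse windows of this length, 12.4% hold TGACNNNGC. GCGTG was found in the windows of Gstm1, Gstm5 and Cyp1a1, and 32.4% of all windows hold it. In Cyp1a1 it starts 54 bases before the transcription start and is followed at 30 bases before the start by TATAA, a sequence in 24.9% of windows. The Gstm1 window has its GCGTG 231 bases and a TATAA 30 bases before the start. RefSeq gives Gstm1 a further start upstream, from which the same GCGTG lies 76 bases away and whose window holds no TATAA. The Gstm2 and Gsto1 windows hold none of these motifs on either strand. These matches describe letters in a window and not occupied sites.

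Levels were compared between the genes as CPM per kilobase of exon. Aldh3a1, which oxidises lipid-derived aldehydes and is abundant in cornea, was the highest, at 220.0 ± 46.7 CPM per kilobase in A20KIKO and 195 ± 27.7 in A20WT mice (SD, n = 4 each, as in all that follow). In A20WT mice Gstm1 stood next at 194 ± 30.6 CPM per kilobase, not separable from Aldh3a1 and above Gsto1 in every library. In A20KIKO mice Gstm1 was the fourth at 110.3 ± 14.9 CPM per kilobase, behind Gsto1 at 154.5 ± 18.9 and Gstm5 at 142 ± 22.0, although its libraries still overlapped those of Gstm5. Gstm2 followed in both groups, at 73.6 ± 8.23 CPM per kilobase in A20KIKO and 89.8 ± 18.5 in A20WT mice, above Cyp1a1 in each library of its group. Cyp1a1, Gsta4 and Nqo1 came next, and each overlapped its neighbour in this order in both groups. At the low end lay Cyp2g1, at 0.910 to 3.52 CPM per kilobase in A20KIKO and 6.80 to 16.1 in A20WT mice, and Sult2a3, at 0.263 ± 0.110 in A20KIKO and 3.79 ± 0.841 in A20WT mice. The order at the top depends on the length used. Per kilobase of the longest transcript, Gsto1 came first, at 264 CPM in A20KIKO and 234 CPM in A20WT mice, and Aldh3a1 had 247 CPM in A20KIKO and 219 CPM in A20WT mice. By this length Gstm1, at 126 CPM in A20KIKO and 222 CPM in A20WT mice, stood between Gsto1 and Aldh3a1 in A20WT mice.

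**Figure D1:**
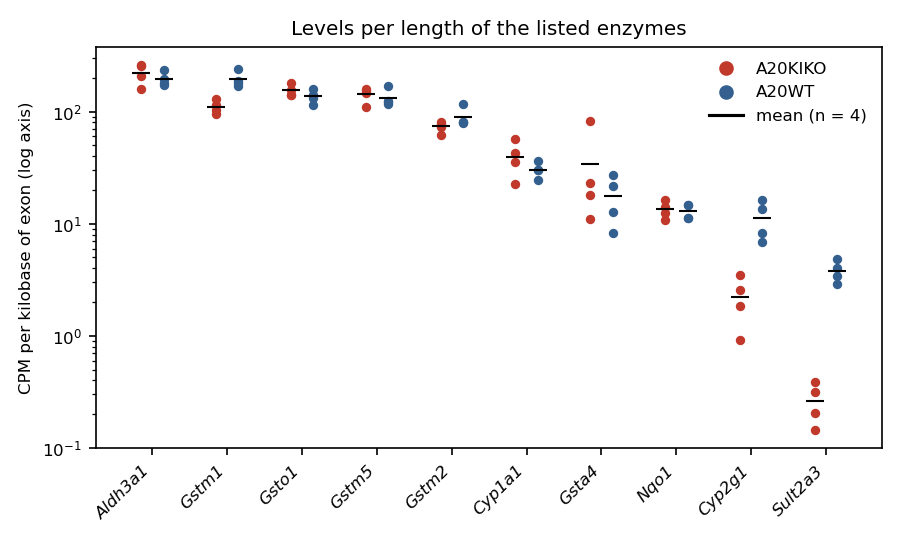
Level of each enzyme per length, in CPM per kilobase of exon on a log axis, with A20KIKO mice left of A20WT mice; points are single libraries and bars mark group means. With this length Aldh3a1 was highest in both groups (220.0 in A20KIKO and 195 in A20WT mice), and Sult2a3 was lowest (0.263 in A20KIKO and 3.79 in A20WT mice).

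The 10 genes did not move together. Gstm1, Cyp2g1 and Sult2a3 were lower in A20KIKO mice, with each A20KIKO library below each A20WT library, and the other 7 overlapped between the groups. Those 3 also lay past an adjusted p of 0.05 in the fit over all genes, where 3.49% of all tested genes passed in either direction, 1.06% as lower and 2.43% as higher. Complete separation with A20KIKO lower was seen in 4.79% of tested genes, and with A20KIKO higher in 5.78%. Since the genes were listed with this contrast known, the count follows from the choice, and nothing is read from it or from these shares. Log2 changes (A20KIKO minus A20WT) were positive for 6 and negative for 4 of the 10, with a median of 0.07, and the median of all tested genes was -0.01. Summed over the 10 genes, the level was 1387 ± 116 CPM in A20KIKO and 1416 ± 186 CPM in A20WT mice. A20WT mouse 1 was the highest library of its group for 8 of the 10 genes, while in A20KIKO mice, mouse 2 was highest for 6 and mouse 4 lowest for 5.

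**Figure D2:**
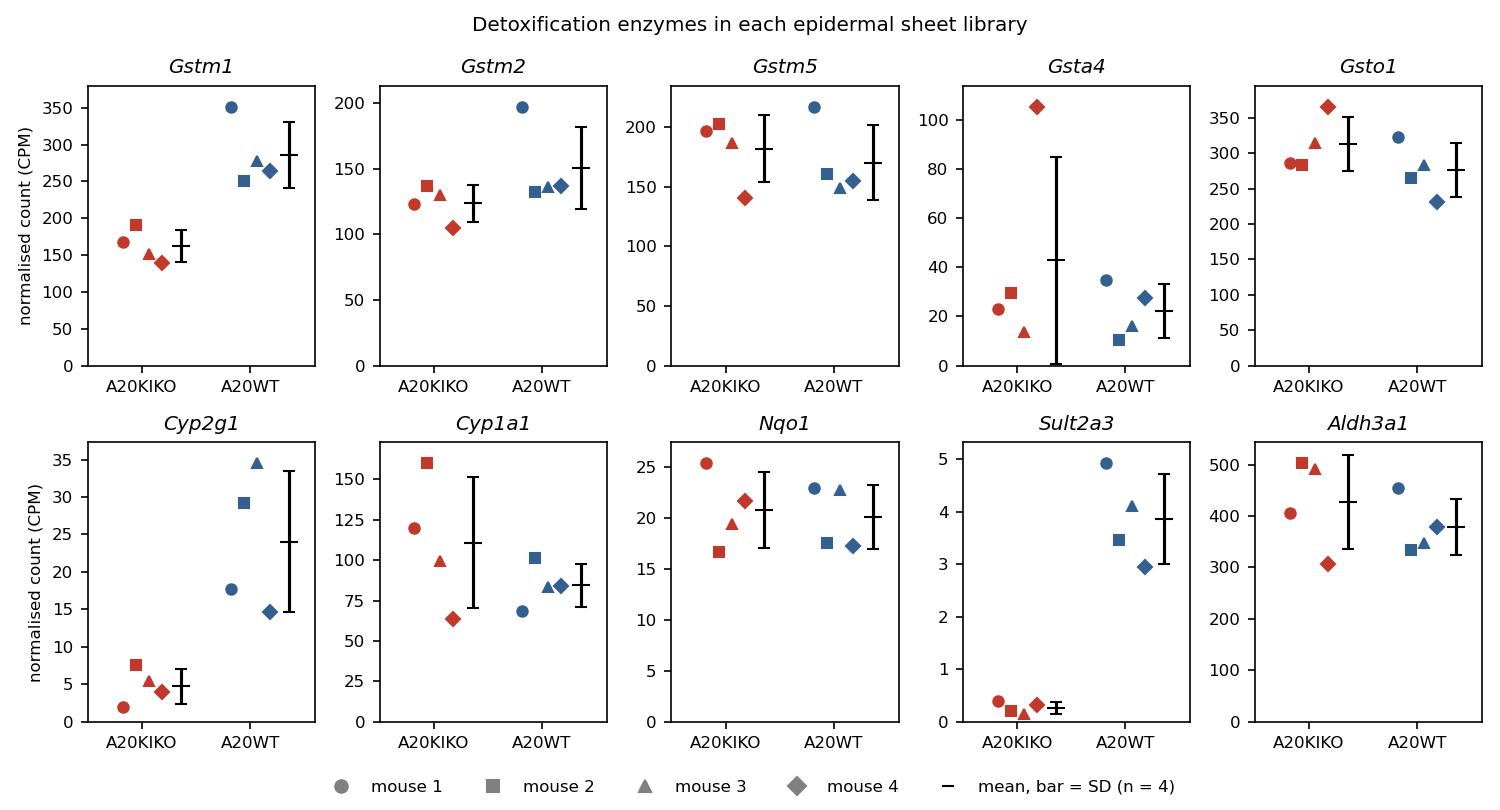
CPM of each of the 10 enzymes in every library, 1 panel per gene, each axis starting at 0, with A20KIKO mice left of A20WT mice; marker shapes are mice 1 to 4 and black bars are group means with the SD (n = 4). Gstm1, Cyp2g1 and Sult2a3 are the panels in which no A20KIKO library reaches the lowest A20WT library, and in the Gsta4 panel A20KIKO mouse 4 stands alone at 105 CPM.

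Gstm1 encodes a mu-class glutathione transferase, which joins glutathione to electrophiles such as epoxides and unsaturated aldehydes. Its gene (ENSMUSG00000058135) lies on chromosome 3 at 108012255 to 108017973, minus strand, in GRCm38. Gstm1 had 167, 191, 152 and 139.7 CPM in A20KIKO mice 1 to 4, against 351, 250.2, 278 and 264 CPM in A20WT mice 1 to 4. The highest A20KIKO library thus lay below the lowest A20WT library. The group means were 162 CPM in A20KIKO and 286 CPM in A20WT mice, a log2 change of -0.82 (SE 0.14), or 1.76-fold lower. With a library left out in turn, the log2 change ran from -0.90 to -0.70.

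Gstm2 and Gstm5 encode mu-class enzymes from the same cluster. Gstm2 (ENSMUSG00000040562, chromosome 3, 107981702 to 107986453, minus strand) had 123, 137, 130.1 and 105 CPM in A20KIKO mice, against 197, 133, 136 and 137 CPM in A20WT mice. A single high library, A20WT mouse 1, set it apart from the rest, and the other 7 libraries ran from 105 to 137 CPM. The log2 change was -0.29 (SE 0.14) with all libraries and -0.13 without A20WT mouse 1. Gstm5 (ENSMUSG00000004032, chromosome 3, 107895821 to 107898686, plus strand) had 196, 203, 187 and 140.5 CPM in A20KIKO mice, against 217, 160.4, 148 and 154 CPM in A20WT mice. Its groups overlapped, with a log2 change of 0.09 (SE 0.15). Exons of Gstm5 overlap those of the antisense gene 4933431E20Rik over 178 bases, and these libraries keep no strand, so reads there cannot be assigned to either.

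The ratio of the mu-class genes within a library does not depend on library scaling, and it separated the groups. Counts of Gstm1 per count of Gstm5 were 0.854, 0.940, 0.815 and 0.994 in A20KIKO mice, against 1.62, 1.56, 1.87 and 1.71 in A20WT mice. Gstm5 was thus counted more often than Gstm1 in every A20KIKO library, and Gstm1 more often than Gstm5 in every A20WT library. Gstm1 per Gstm2 averaged 1.31 ± 0.100 in A20KIKO and 1.91 ± 0.106 in A20WT mice, with no overlap. Gstm2 per Gstm5 also separated, at 0.686 ± 0.0496 in A20KIKO and 0.885 ± 0.0412 in A20WT mice. Of the 3 genes' summed counts, Gstm1 took 32.4% to 36.3% in A20KIKO and 45.9% to 49.4% in A20WT mice, and Gstm5 took 36.5% to 40.3% in A20KIKO and 26.4% to 29.5% in A20WT mice. The share of Gstm2 lay between 24.2% and 27.7% in all 8 libraries. Such a ratio shows unequal change and not which gene stayed level. The 3 genes were listed with this contrast known, so the separation of the ratios that hold Gstm1 largely follows from the choice. How often other gene pairs separate was not examined. Of the 75-base words in Gstm1 transcripts, 11.7% also occur in another gene, mainly the pseudogene Gstm2-ps1, against 1.84% for Gstm2 and 7.47% for Gstm5. How the counting treated such reads is not given in the sources used here.

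**Figure D3:**
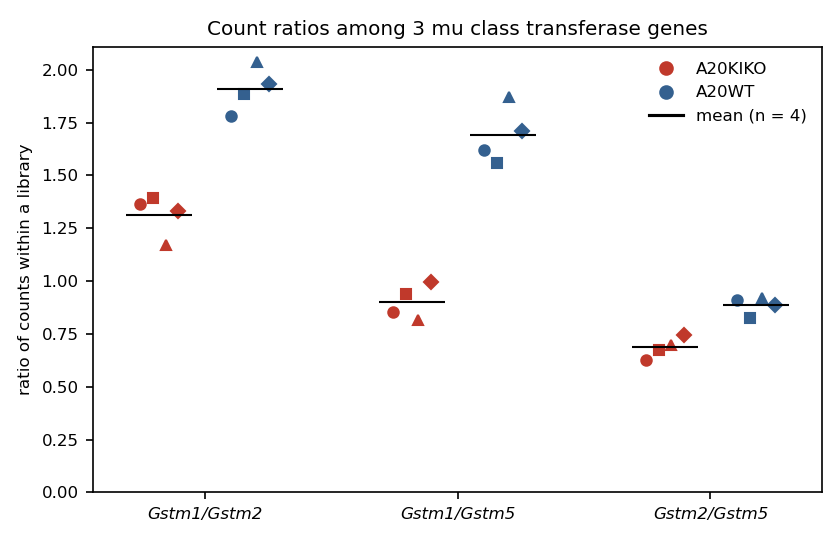
Count ratios between Gstm1, Gstm2 and Gstm5 within each library, without units, with A20KIKO mice left of A20WT mice and bars at group means. Gstm1 per Gstm5 lies between 0.815 and 0.994 in A20KIKO and between 1.56 and 1.87 in A20WT mice.

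The other 4 genes of the Gstm cluster, which spans 107895821 to 108044894 on chromosome 3, did not pass the test. Gstm6 had 17.3 ± 3.54 CPM in A20KIKO and 17.9 ± 3.92 CPM in A20WT mice, and Gstm4 had 15.2 ± 2.49 CPM in A20KIKO and 13.8 ± 1.30 CPM in A20WT mice. Gstm7 and Gstm3 stood near 1 CPM or below, with log2 changes of -0.46 (SE 0.32) and 0.29 (SE 0.53). Whether the change of Gstm1 differs from that of each neighbour was not tested.

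Gsta4 encodes an alpha-class transferase with high activity toward 4-hydroxynonenal, an aldehyde made by lipid peroxidation. Gsta4 (ENSMUSG00000032348, chromosome 9, 78182774 to 78209349, plus strand) had 23.1, 29.3, 13.8 and 105 CPM in A20KIKO mice, against 34.7, 10.5, 16.2 and 27.5 CPM in A20WT mice. The groups overlapped, and A20KIKO mouse 4 lay far above the other 7 libraries. The log2 change of 0.95 (SE 0.72) was carried by that library and was -0.01 without it. The same library held the highest summed level of 11 neutrophil markers, 3278 CPM, where the A20KIKO range began at 54.6 CPM and A20WT mice had 40.0 to 80.7 CPM. Of these 11 markers 5 were tested and 0 passed, and which cells gave rise to the sum was not examined. The part of this sum in the Gsta4 value was not tested. Among the related genes, Gsta2 had 44.1 ± 3.15 CPM in A20KIKO and 60.1 ± 8.55 CPM in A20WT mice, with each A20KIKO library lower and a log2 change of -0.45 (SE 0.12) that did not pass (edgeR adjusted p = 0.0768). Gsta2 was singled out after its values were seen, and 36.6% of its transcript words occur in other genes, mainly Gsta1.

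Gsto1, an omega-class transferase that reduces dehydroascorbate and protein mixed disulfides, was among the most abundant of the 10. Gsto1 (ENSMUSG00000025068, chromosome 19, 47854970 to 47864790, plus strand) had 286, 283, 315 and 366 CPM in A20KIKO mice, against 324, 266, 283 and 232 CPM in A20WT mice. The ranges overlapped, with a log2 change of 0.18 (SE 0.13). Its neighbour Gsto2 was below 1.01 CPM in every library.

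Cyp2g1, a cytochrome P450 best known from olfactory mucosa, was 5.10-fold lower in A20KIKO mice. Cyp2g1 (ENSMUSG00000049685, chromosome 7, 26808892 to 26821205, plus strand) had 1.95, 7.55, 5.49 and 3.99 CPM in A20KIKO mice, against 17.8, 29.3, 34.5 and 14.6 CPM in A20WT mice. No library overlapped, but both groups were spread widely, and the log2 change was -2.35 (SE 0.43). With a library left out in turn, it ran from -2.67 to -2.09. The gene missed an adjusted p of 0.05 without A20KIKO mouse 3, without A20WT mouse 1, 2 or 3, and with no filter on low counts.

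Cyp2g1 lies in a cluster of 13 Cyp2 genes on chromosome 7, 25802475 to 27158668, of which 7 were tested. Its neighbours Cyp2a5 and Cyp2f2, P450s known from the airway and nasal epithelium, were also lower in A20KIKO mice. Cyp2a5 had 0.608, 0.363, 0.539 and 0.604 CPM in A20KIKO mice, against 1.86, 2.07, 0.951 and 1.48 CPM in A20WT mice, which gives a log2 change of -1.58 with an SE of 0.33 (edgeR adjusted p = 0.0188). Cyp2f2 had 2.09, 1.63, 1.86 and 1.01 CPM in A20KIKO mice, against 3.49, 4.38, 3.56 and 4.10 CPM in A20WT mice, or -1.24 on the log2 scale with an SE of 0.25 (edgeR adjusted p = 0.0151). Neither gene overlapped between the groups, although both were scarce. Both were picked by the test, so their lack of overlap adds no support. Over all tested genes, 1.06% passed as lower and 4.79% separated with A20KIKO lower. A filter of 5 CPM in at least 4 libraries would leave out Cyp2a5, Cyp2f2 and Cyp2b23. The edgeR adjusted p of Cyp2a5 was 0.0510 without A20KIKO mouse 1, 0.0503 without A20WT mouse 1 and 0.0592 without A20WT mouse 2, and that of Cyp2f2 was 0.0502 without A20WT mouse 4. With the replicate number as a block, the adjusted p of Cyp2a5 was 0.0538. The cluster did not change as a whole: Cyp2b23 was higher, at 8.11 ± 3.44 CPM in A20KIKO and 2.56 ± 0.711 CPM in A20WT mice (log2 change 1.66, SE 0.32, edgeR adjusted p = 0.0121). Cyp2b10, Cyp2b19 and Cyp2s1 did not pass, with log2 changes of -0.06, 0.10 and -0.22. For Cyp2a5, 22.3% of transcript words occur in another gene, mainly Cyp2a4, which had 0 counts in A20KIKO and 3 in A20WT mice.

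Cyp1a1, the P450 that oxidises polycyclic aromatic hydrocarbons and responds to AhR, had 120.0, 160.0, 99.3 and 63.4 CPM in A20KIKO mice, against 68.8, 101.4, 83.6 and 83.7 CPM in A20WT mice. Its gene (ENSMUSG00000032315) lies on chromosome 9 at 57687928 to 57703824, plus strand. A20KIKO mouse 4 was the lowest of all 8 libraries and A20KIKO mouse 2 the highest, so the groups overlapped, with a log2 change of 0.39 (SE 0.24). Its neighbour Cyp1a2 had 14 counts in A20KIKO and 3 counts in A20WT mice in total, too few to be tested.

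Nqo1 encodes a flavoprotein that reduces quinones and is a standard readout of NRF2 activity. Nqo1 (ENSMUSG00000003849, chromosome 8, 107388225 to 107403206, minus strand) had 25.4, 16.7, 19.5 and 21.7 CPM in A20KIKO mice, against 22.9, 17.6, 22.8 and 17.3 CPM in A20WT mice. The libraries of the groups were interleaved, with a log2 change of 0.05 (SE 0.16) whose sign turned with the scaling and with single libraries left out. Aldh3a1 (ENSMUSG00000019102, chromosome 11, 61207537 to 61218421, plus strand) had 407, 503, 492 and 308 CPM in A20KIKO mice, against 454, 334, 348 and 379 CPM in A20WT mice. Its groups overlapped too, with a log2 change of 0.17 (SE 0.16).

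Sult2a3, a member of the Sult2a family of sulfotransferases that act on hydroxysteroids and bile acids, showed the widest difference of the 10. Sult2a3 (ENSMUSG00000074375, chromosome 7, 14067446 to 14123044, minus strand) was counted 34, 12, 6 and 28 times in A20KIKO mice, against 428, 192, 354 and 190 times in A20WT mice. In CPM this was 0.398, 0.208, 0.147 and 0.319 in A20KIKO mice, against 4.93, 3.46, 4.11 and 2.95 in A20WT mice. No A20KIKO library came near the lowest A20WT library, and the log2 change was -3.79 (SE 0.33), or 13.9-fold lower. With a library left out in turn, the log2 change ran from -4.04 to -3.62. A filter of 5 CPM in at least 4 libraries would leave the gene out. The other 7 Sult2a genes on chromosome 7, between 13623967 and 14494230, were barely counted: Sult2a1 had 7 counts in A20KIKO and 39 in A20WT mice, Sult2a5 had 19 in A20KIKO and 10 in A20WT mice, and Sult2a2 and Sult2a7 had 0 in all libraries. Sult2a3 shared 1.80% of its transcript words with another gene, Sult2a5.

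**Figure D4:**
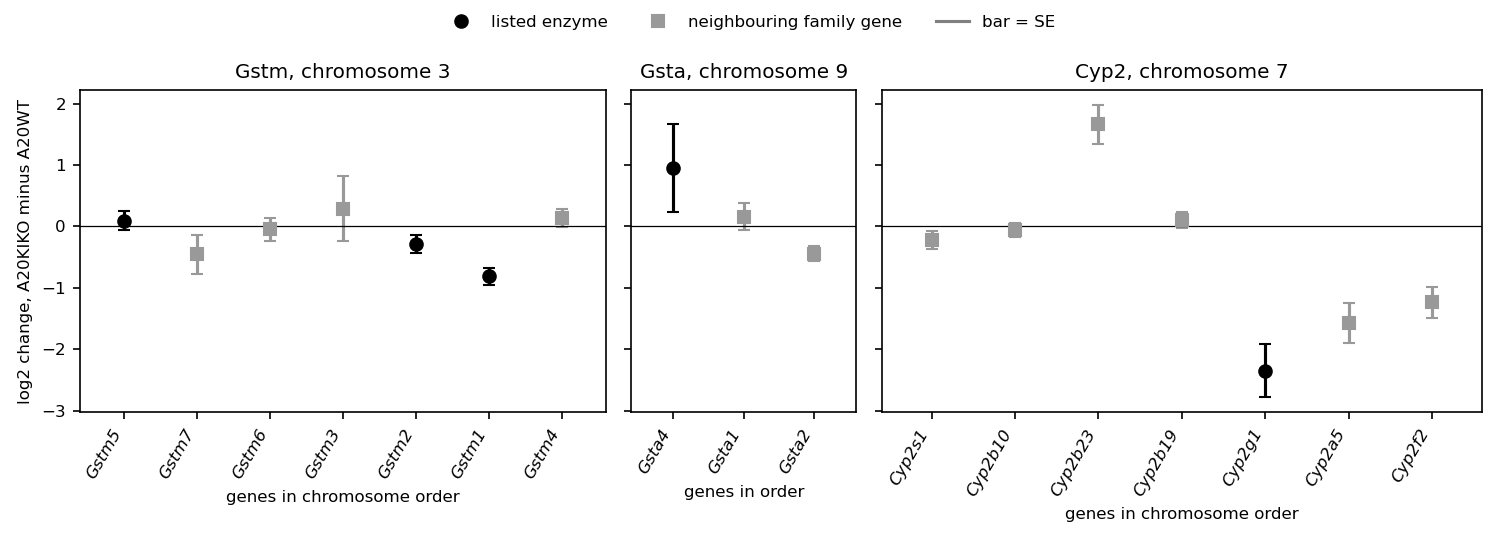
Log2 change (A20KIKO minus A20WT) for the tested genes of the Gstm, Gsta and Cyp2 clusters in chromosomal order, with bars for the SE; black circles are listed enzymes and grey squares their neighbours. Gstm1 lies lowest of its cluster at -0.82, and in the Cyp2 cluster Cyp2g1, Cyp2a5 and Cyp2f2 lie below 0 while Cyp2b23 lies above.

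Summed levels of cell type markers separated between the groups for some lists and overlapped for others. The summed level of 9 basal keratinocyte markers was 23660 to 29310 CPM in A20KIKO and 32060 to 42020 CPM in A20WT mice. Of these 9, 1 was lower by the test, Krt5, and none was at 0. Their log2 changes were positive for 2 and negative for 7, with a median of -0.24. Krt5 is also the gene whose promoter drives the Cre, and its part in the sum was not examined. Summed hair follicle markers were 3636 to 5457 CPM in A20KIKO and 2698 to 3370 CPM in A20WT mice, although 1 of 13 tested, Lgr6, was lower. Log2 changes of these 13 were positive for 8 and negative for 5. Monocyte and macrophage markers summed to 105.6 to 152 CPM in A20KIKO and 60.4 to 104.7 CPM in A20WT mice, with 4 of the 9 tested higher. Over all tested genes, 2.43% passed as higher and 1.06% as lower. The number of calls in each marker list was not tested against those shares. Summed sebocyte markers overlapped, at 2006 to 3786 CPM in A20KIKO and 1970 to 2550 CPM in A20WT mice, with Elovl3 and Dgat2l6 higher among 14. Adipocyte markers were scarce, at 6.45 to 10.8 CPM in A20KIKO and 3.94 to 6.16 CPM in A20WT mice, with Lep at 0. Mast cell, basophil and eosinophil markers were scarce too, summing to 4.58 to 29.5 CPM in A20KIKO and 2.36 to 4.20 CPM in A20WT mice. The highest sum was that of A20KIKO mouse 4. Of these 10 markers 3 were tested and 0 passed, with log2 changes positive for 2 and negative for 1. Melanocyte markers overlapped in sum, at 47.9 to 228 CPM in A20KIKO and 43.3 to 59.1 CPM in A20WT mice, but 6 of 7 had positive log2 changes (median 1.33) and Slc45a2 was higher by the test. Chondrocyte markers summed to 6.96 to 17.2 CPM in A20KIKO and 8.90 to 53.6 CPM in A20WT mice, with negative log2 changes for all 7 tested (median -1.60), of which 0 passed in edgeR (4 at an unadjusted p under 0.05), 0 in limma-voom and 2 in DESeq2. Fibroblast markers summed to 325 to 728 CPM in A20KIKO and 416 to 732 CPM in A20WT mice, with negative log2 changes for 7 of 10 tested, of which 0 passed in edgeR (5 at an unadjusted p under 0.05), 2 in limma-voom and 3 in DESeq2. Sums of Langerhans cell, epidermal T cell, endothelial, skeletal muscle and Schwann cell markers overlapped, and 0 of the tested genes in those lists passed in edgeR. In bulk tissue, fewer cells of a type and less RNA per cell cannot be told apart. The part of any of these cell type markers in the values of Gstm1, Cyp2g1 and Sult2a3 was not tested.

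The wider detoxification system was read from 13 gene lists with 344 genes outside the 10, of which 231 were tested. Of these, 13 passed the test, 10 higher and 3 lower in A20KIKO mice, or 5.63% where 3.49% of all tested genes passed. The lists were chosen with earlier results of these data known, so nothing is read from the difference between these shares. The 10 higher include Cyp2j13, which entered the test only through its A20KIKO libraries. The median log2 change was 0.0025 over the 231 genes and -0.01 over all tested genes. The split was 8 higher and 5 lower with upper-quartile scaling, 8 higher and 4 lower with library totals alone, and 12 higher and 1 lower with the replicate number as a block. The total was 7 without A20KIKO mouse 1 and 8 without A20WT mouse 3. Cyp2j13 left aside, the genes that rose outside the listed enzymes were carboxylesterases, efflux pumps, the P450 Cyp2b23, a glucuronosyltransferase and an aldehyde dehydrogenase.

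Among 28 tested hydrolases and other phase I or II enzymes, 3 rose and 0 fell, where 2.43% of all tested genes passed as higher. All 3 were carboxylesterases, which split ester bonds in lipids and drugs. Ces2e had 11.1, 12.6, 9.07 and 4.43 CPM in A20KIKO mice, against 1.26, 2.14, 1.61 and 2.53 CPM in A20WT mice (log2 change 2.30, SE 0.32, edgeR adjusted p = 0.00206). Ces2f had 60.8 ± 4.74 CPM in A20KIKO and 35.3 ± 3.57 CPM in A20WT mice (log2 change 0.79, SE 0.12, edgeR adjusted p = 0.00273). Ces4a, at 240.3 ± 49.3 CPM in A20KIKO and 155 ± 24.5 CPM in A20WT mice (log2 change 0.63, SE 0.16), passed narrowly at an edgeR adjusted p of 0.0493. It missed the threshold without any of A20KIKO mice 1, 2 and 3 or A20WT mice 1, 3 and 4, at adjusted p of 0.0648 to 0.148. It missed it as well with upper-quartile scaling (0.0643), library totals alone (0.0790), the 5 CPM filter (0.0514), non-robust dispersions (0.0563) and limma-voom (0.0590).

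Of 12 tested efflux transporters, 3 rose and 0 fell, where 2.43% of all tested genes passed as higher. No library of these 3 overlapped between the groups, and 5.78% of all tested genes separated with A20KIKO higher. The 3 were picked by the test, so their lack of overlap adds no support. Abcc3, a pump for glutathione, glucuronide and sulfate conjugates, had 27.2, 34.5, 35.7 and 24.9 CPM in A20KIKO mice, against 12.3, 15.2, 16.1 and 14.7 CPM in A20WT mice (log2 change 1.07, SE 0.15, edgeR adjusted p = 0.00205). Abcb1b, which encodes a P-glycoprotein, had 21.4 ± 4.14 CPM in A20KIKO and 10.5 ± 2.80 CPM in A20WT mice (log2 change 1.03, SE 0.20, edgeR adjusted p = 0.0149). Abcg2, the breast cancer resistance protein that exports sulfated conjugates among others, had 48.5 ± 3.07 CPM in A20KIKO and 32.7 ± 4.62 CPM in A20WT mice (log2 change 0.57, SE 0.13, edgeR adjusted p = 0.0283). The pump Abcb1b had an adjusted p of 0.0510 without A20KIKO mouse 1 and 0.0550 without A20WT mouse 4, and Abcg2 had 0.0561 to 0.0918 when A20KIKO mouse 1, 3 or 4 was left out, or A20WT mouse 3 or 4.

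Of 27 other tested P450s of families 1 to 4, 2 passed as higher (Cyp2b23, described above, and Cyp2j13) and 2 as lower (Cyp2a5 and Cyp2f2). Over all tested genes, 2.43% passed as higher and 1.06% as lower. Cyp2j13 was scarce, at 100 counts in the 4 A20KIKO libraries and 2 counts in the 4 A20WT libraries (edgeR adjusted p = 0.00292). It entered the test only through its A20KIKO libraries, so its direction was fixed by the filter and is not read as a result. Of 5 tested glucuronosyltransferases 1 rose, Ugt1a7c, with 23.0 ± 4.27 CPM in A20KIKO and 12.7 ± 3.69 CPM in A20WT mice (log2 change 0.86, SE 0.21, edgeR adjusted p = 0.0414), but 52.5% of its transcript words occur in other Ugt1a genes. Of 17 other tested aldehyde dehydrogenases 1 rose, Aldh3b3, with 23.2 ± 4.03 CPM in A20KIKO and 10.1 ± 5.08 CPM in A20WT mice (log2 change 1.20, SE 0.29, edgeR adjusted p = 0.0486). Of the 16 tested AhR pathway genes 1 fell, Selenbp1, with 11.1 ± 0.291 CPM in A20KIKO and 16.1 ± 2.19 CPM in A20WT mice (log2 change -0.53, SE 0.13, edgeR adjusted p = 0.0477). For Selenbp1, 29.9% of transcript words also occur in Selenbp2. These last 3 calls were fragile to single libraries and to the processing. Ugt1a7c missed the threshold when A20KIKO mouse 1, 3 or 4 was left out, or A20WT mouse 1, 2 or 3 (adjusted p 0.0616 to 0.115), Aldh3b3 without the same libraries (0.0848 to 0.170), and Selenbp1 without any of the 8 (0.0578 to 0.156). Ugt1a7c also missed it with non-robust dispersions (0.0518), and Aldh3b3 with upper-quartile scaling (0.0522) and no count filter (0.139). Selenbp1 missed it with the replicate number as a block (0.106), with limma-voom (0.0635) and with no count filter (0.0743).

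The other glutathione transferases showed no change by the test: 0 of 20 passed in edgeR, where 3.49% of all tested genes did. Of the 20, 3 lay at an unadjusted p under 0.05, and 0 passed in limma-voom and 3 in DESeq2. The transferases with the highest mean CPM were the microsomal Mgst1, at 375 CPM in A20KIKO and 338 CPM in A20WT mice, and Mgst3, at 76.7 CPM in A20KIKO and 105 CPM in A20WT mice. Of 4 other tested sulfotransferases 0 passed in edgeR, with 2 at an unadjusted p under 0.05, 0 in limma-voom and 1 in DESeq2. Sult2b1, the cholesterol sulfotransferase of epidermis, had 171 CPM in A20KIKO and 169 CPM in A20WT mice. Among 19 aldo-keto and carbonyl reductases 0 passed in edgeR, with 3 at an unadjusted p under 0.05, 2 in limma-voom and 2 in DESeq2. Akr1a1 had 587 CPM in A20KIKO and 596 CPM in A20WT mice, and Cbr3 had 116 CPM in A20KIKO and 119 CPM in A20WT mice.

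The list of other known NRF2 targets held no call either, although Abcc3, described above under efflux, is also known as an NRF2 target. Over all tested genes, 3.49% passed in edgeR. Of 36 other known NRF2 targets 0 passed in edgeR, with 6 at an unadjusted p under 0.05, 0 in limma-voom and 2 in DESeq2, and their median log2 change was 0.01. In other edgeR settings, 1 passed as lower with upper-quartile scaling and 1 as higher with no count filter. Without A20KIKO mouse 4, 2 passed as higher, and without A20WT mouse 1, 1 passed as lower. Of 36 genes of the glutathione and thioredoxin systems 0 passed in edgeR, with 7 at an unadjusted p under 0.05, 0 in limma-voom and 2 in DESeq2, at a median of -0.03. The peroxidase Gpx1 had 1290 CPM in A20KIKO and 1065 CPM in A20WT mice, and the peroxiredoxin Prdx1 had 861 CPM in A20KIKO and 872 CPM in A20WT mice. The iron store Fth1 had 1412 CPM in A20KIKO and 1326 CPM in A20WT mice. Of 14 NRF2 regulators and partners 0 passed in edgeR, with 2 at an unadjusted p under 0.05, 0 in limma-voom and 1 in DESeq2. Nfe2l2, the gene of NRF2, had 129.6 to 149 CPM in A20KIKO and 116 to 140.1 CPM in A20WT mice (log2 change 0.09, edgeR adjusted p = 0.754). Keap1 had 76.6 to 80.8 CPM in A20KIKO and 66.6 to 79.1 CPM in A20WT mice (log2 change 0.10, edgeR adjusted p = 0.708).

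The transcripts of the AhR itself and its partners overlapped between the groups as well. Ahr had 58.6 to 75.2 CPM in A20KIKO and 41.3 to 87.9 CPM in A20WT mice (log2 change 0.03, edgeR adjusted p = 0.959). Its dimer partner Arnt had 35.3 to 42.2 CPM in A20KIKO and 26.0 to 48.1 CPM in A20WT mice (log2 change -0.05, edgeR adjusted p = 0.941). The repressor Ahrr, itself known as an AhR target, had 2.53 to 3.51 CPM in A20KIKO and 1.48 to 4.74 CPM in A20WT mice (log2 change -0.15, edgeR adjusted p = 0.885). The sign of Ahr turned under upper-quartile scaling, at -0.0032, and those of Ahr, Arnt and Ahrr turned without single libraries. Of 15 xenobiotic and lipid-sensing nuclear receptors 0 passed in edgeR, with 2 at an unadjusted p under 0.05, 0 in limma-voom and 0 in DESeq2. The shared dimer partner Rxra had a log2 change of -0.03, and the liver X receptor Nr1h2 had 183 CPM in A20KIKO and 182 CPM in A20WT mice. Transcript levels do not report the activity of these factors.

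**Figure D5:**
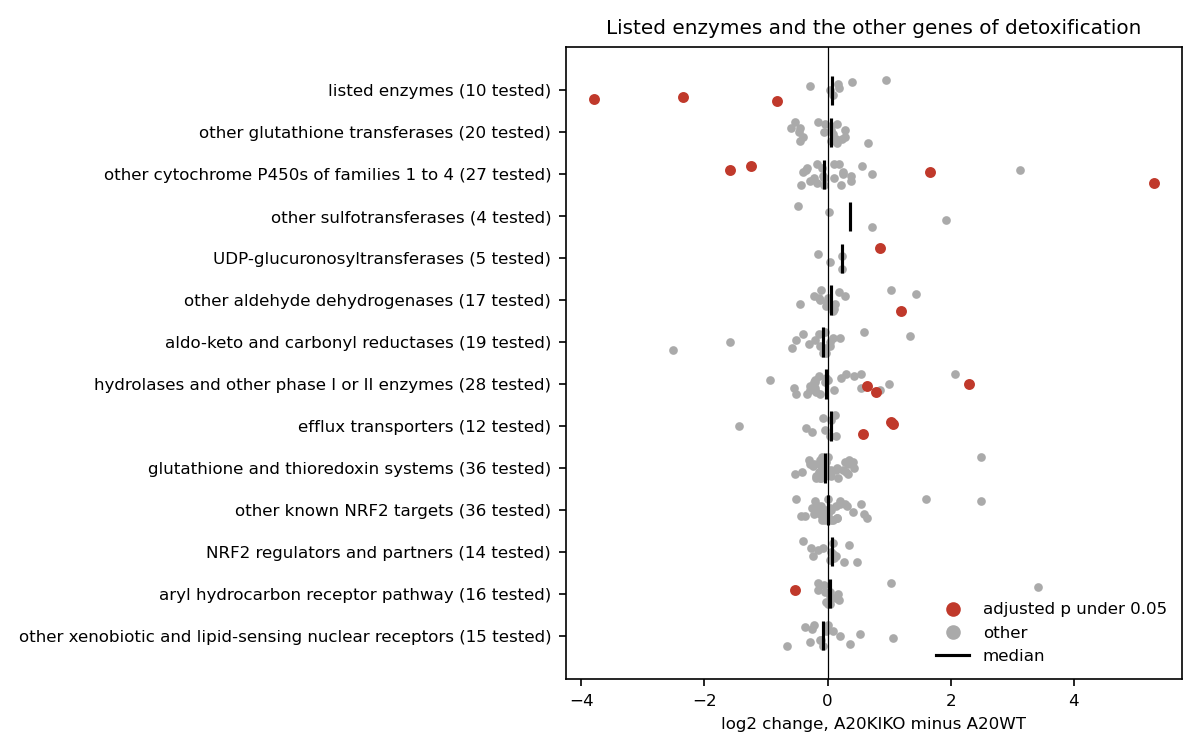
Log2 change (A20KIKO minus A20WT) of every tested gene of the 10 enzymes (top row) and of the 13 detoxification lists outside them, 1 row per list; red points had an edgeR adjusted p under 0.05, which for the top row follows from the choice of genes, and black bars are medians. Red points in the efflux and hydrolase rows lie above 0, and the rows of other glutathione transferases and other NRF2 targets hold none. The lists too were chosen with earlier results of these data known.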

How the data were processed

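Epidermal RNA of 8 mice was made into libraries with the SMART-Seq v4 and Nextera kits and sequenced on a NovaSeq, per the labels' protocols, without strand or molecular identifiers. The authors deposited raw counts per Ensembl gene, with 2 columns per library, 1 for each lane. The submitters' processing notes list the builds GRCm38.p5 and GRCh38 and the tools STAR 2.4.2a, HTSeq 0.6.1p1 and Picard 1.139. The role of each, like the counting options, is not given in the sources used here. Lanes were summed. Of 51912 identifiers, 51633 matched a symbol and 51719 a position in GENCODE M21 on GRCm38.

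Genes were filtered with filterByExpr (minimum count 10, minimum total 15), which kept 16512. Libraries were scaled by TMM, and a robust quasi-likelihood model with the group as its 1 term was fitted in edgeR 4.0.16 (R 4.3.3). A gene was called at a Benjamini-Hochberg adjusted p under 0.05, two-sided and over all 16512 genes. The SE of a log2 change is its size divided by the square root of F. Alternatives were other scalings, no filter, a filter of 5 CPM in at least 4 libraries, limma-voom (limma 3.58.1), DESeq2 1.42.0, non-robust dispersions, an adjusted p under 0.01, the replicate number as a block, and each library left out in turn. Transcripts were compared as words of 75 bases, and promoter windows were RefSeq's for GRCm38.p6. Tables and plots were made in Python 3.11.15 with Matplotlib 3.10.9, pandas 2.3.3 and NumPy 2.4.6.

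The 10 genes and the lists were chosen with earlier results of these data known. Genes outside the 10 were named by a rule: Tnfaip3, 5 regulators, from each detoxification list up to 4 called genes in order of adjusted p (in lists without a call, the 2 of highest mean CPM), and members of the gene clusters. Counting error and the spread between mice are not separated, and PCR copies are not independent molecules.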

Additional observations from a re-analysis of the deposited data

Results flagged for a closer look

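A single library stood away from the other 3 of its group for 2 of the 10 enzymes, out of 90 sets of 4 libraries examined; chance alone flags about 1 in 20 such sets. Gsta4 had 105 CPM in A20KIKO mouse 4, against 13.8 to 29.3 CPM in the other A20KIKO mice, and this gap was 0.830 of the group's range, just past Dixon's limit. Gstm2 had 197 CPM in A20WT mouse 1, against 133 to 137 CPM in the other A20WT mice, a gap of 0.935 of the range.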

How the results depend on the processing

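Of the 10 enzymes 2 or 3 lay past the threshold in the alternatives run, which their choice on this contrast largely fixes. The number of changed genes among all tested was 576 and became 374 with the 5 CPM filter, 1133 with DESeq2, 250 at an adjusted p under 0.01, and 348 to 619 with a library left out. In the detoxification lists outside the 10 enzymes it was 13 and became 7 with the 5 CPM filter, 31 with DESeq2, 4 at an adjusted p under 0.01, and 7 to 15 with a library left out; fewer genes or samples enter the filter and leave-out settings, and otherwise the cause was not tested. Whether replicate numbers pair the mice was not settled. Same-numbered libraries deviated together with correlations of 0.0471, 0.119, -0.0754 and 0.459 over 11683 genes. Those of differently numbered libraries ran from -0.391 to 0.432, and such correlations cannot exclude a pairing. With the replicate block 551 genes were called (398 higher, 153 lower), with 3 of the 10 enzymes and 13 genes of the lists among them. The widest shift of the median log2 change of all genes was -0.0434, under upper-quartile scaling.

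Signs turned for uncalled genes with log2 changes near 0. Under upper-quartile scaling Ahr was at -0.0032, Sult2b1 at -0.0265, Nr1h2 at -0.0316 and the listed enzyme Nqo1 at -0.0010, and under limma-voom Ahrr was at 0.0027. With a library left out the log2 change ran from -0.138 to 0.192 for Ahr, from -0.198 to 0.0716 for Arnt, from -0.401 to 0.0483 for Ahrr, from -0.0128 to 0.320 for Mgst1, from -0.114 to 0.0952 for Sult2b1, from -0.0759 to 0.0870 for Akr1a1, from -0.149 to 0.105 for Cbr3, from -0.0933 to 0.119 for Prdx1, from -0.103 to 0.0549 for Rxra, from -0.0685 to 0.102 for Nr1h2 and from -0.0642 to 0.139 for Nqo1. Under alternatives, 169 log2 changes of the 10 enzymes were compared with those of the main fit. Of these, 2 moved by more than the SE in that fit, both by leaving out a library.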

Other observations

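For each of the 3 enzymes whose groups did not overlap, the genes with the most similar pattern inside the groups were looked up, as a description. The measure was Pearson's correlation of log2 CPM over 8 libraries, each group centred on its own mean, among genes at or above 5 CPM on average, and such leading values are high by selection from many genes. They were Acot13 (0.994), Coq2 (0.988) and 1110051M20Rik (0.985) for Gstm1, Plod1 (0.979), Man2b1 (0.957) and Wdr59 (0.945) for Cyp2g1, and Naa20 (0.971), Vma21 (0.971) and Sar1b (0.965) for Sult2a3. All points share the depth and scaling of their library.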
